A study of Homo sapiens with 95 samples.

Results

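AALE cells in which CRISPR had targeted FAT1 were compared directly with AALE cells in which CRISPR had targeted CDKN2A, both under the DMSO vehicle. The comparison used 6 of the 95 wells of the series, namely replicates 1 to 3 of the FAT1 cells and replicates 1 to 3 of the CDKN2A cells. The wells were chosen by their titles and no expression value took part in the choice. No control well entered the test, so a difference states how the 2 populations stood against each other and not which of them departed from unedited cells.

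AALE is an immortalized line of human bronchial epithelial cells, and 8 populations of it were profiled by 3′DGE, which counts molecules by the barcode attached to the 3′ end of each transcript. FAT1 and CDKN2A cells are the knockout populations. The control for both, the GFP cells, received the PX458 plasmid, which carries Cas9 and EGFP, with no guide RNA. Cells with an HcRed reporter vector were the control for the overexpression populations. All 6 wells received DMSO alone. Further wells of the same populations received CSC (cigarette smoke condensate, 24 µg/ml), BaP (benzo[a]pyrene, 173 µM) or NNK (a nitrosamine of tobacco, 490 µM), and these are used below as a second measurement. The guide sequences, and whether a knockout population was a single clone or a mixture of edited cells, were not given in the sources used here. The labels also did not say that the wells of a population were separate cultures, so the p-values measure the spread between wells, which may be technical. FAT1 wells occupied plate columns 7 to 9 and CDKN2A wells columns 10 to 12 of the same row, and each population kept its columns under every chemical. Population and plate position therefore cannot be told apart.

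FAT1 is a very large atypical cadherin of the plasma membrane that takes part in cell contact and actin organization and feeds into the Hippo pathway, in which kinases keep the transcriptional coactivators YAP and TAZ out of the nucleus. CDKN2A encodes the INK4a protein, which inhibits the cyclin D kinases and so keeps RB active, and from another reading frame the ARF protein, which protects p53 by binding MDM2. Both genes are often lost in squamous tumours of the lung and of the head and neck, FAT1 by mutation and CDKN2A mostly by deletion or silencing.

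The 6 libraries held between 1296129 and 1792617 UMI counts over 23895 listed genes, and between 11675 and 12980 of them were detected per well. The replicates of the FAT1 cells differed from each other by 1.19 to 1.79 times the variance expected from counting alone (chi-square per degree of freedom). Among the CDKN2A cells replicates 1 and 3 gave 1.2, while replicate 2 gave 2.76 and 2.89 against the other wells and stood apart, so counts are also given without it. Ribosomal protein genes took 36.7 to 37.7% of the counts in FAT1 cells, 27.4 to 28.2% in CDKN2A cells and 31.3 to 32.1% in GFP cells, and the nuclear RNA MALAT1 took 2.22 to 2.57% in FAT1 cells and 3.41 to 3.58% in CDKN2A cells. The basal airway keratin KRT5 lay between 138 and 184 counts per 1e6 counts (CPM) in the 6 wells and the basal transcription factor TP63 between 19.1 and 35.5 CPM. Of 20 listed markers of fibroblasts, immune cells, endothelium and differentiated airway cells, 12 had no count in any of the 6 wells, and the markers summed to 19 to 28 counts in FAT1 wells and 26 to 34 counts in CDKN2A wells. None of the 5 of them that were tested passed.

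The transcripts of the targeted genes were examined first. FAT1 (chromosome 4, 187508948 to 187647876, hg19) was counted 0, 6 and 3 times in the FAT1 wells and 46, 38 and 41 times in the CDKN2A wells. Scaled for library size this gave 0, 3.52 and 2.49 CPM in FAT1 cells, 24.0, 22.9 and 24.3 CPM in CDKN2A cells, and 7.56, 11.7 and 5.81 CPM in GFP cells. Every FAT1 well lay below every GFP well, and every CDKN2A well lay above them. The mean was 2.0 ± 1.81 CPM in FAT1 cells and 23.7 ± 0.77 CPM in CDKN2A cells (SD, n = 3 each), and the log2 fold change of FAT1 over CDKN2A cells was -4.01 (SE 0.58, limma adjusted p = 3.55e-08). Leaving out FAT1 replicate 1, the well with no count, gave -2.85, and leaving out FAT1 replicate 2 gave -4.83. HcRed cells under DMSO held 16.5 to 21.1 CPM. The FAT1 transcript was thus lowest in the wells labelled FAT1, and its level in CDKN2A cells was nearer to that of HcRed cells than to that of GFP cells. In bulk wells fewer cells with a transcript and less of it per cell cannot be told apart.

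The CDKN2A transcript (chromosome 9, 21967751 to 21995300) did not separate the populations under DMSO. It stood at 19.2, 20.5 and 24.0 CPM in FAT1 cells and at 17.7, 19.9 and 20.2 CPM in CDKN2A cells, and the wells overlapped (log2 fold change 0.13, SE 0.23, limma adjusted p = 0.748). GFP cells held 38.7, 35 and 36.3 CPM, above every well of both knockout populations, and HcRed cells held 19.8 to 21.9 CPM. A 3′ count does not read the coding sequence, so the level does not show whether the CDKN2A wells carried the edit that their label names. Set against the median of its chromosome arm, an alternative chosen after seeing the data, the value turned to -0.64 (adjusted p = 0.043).

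**Figure D1:**
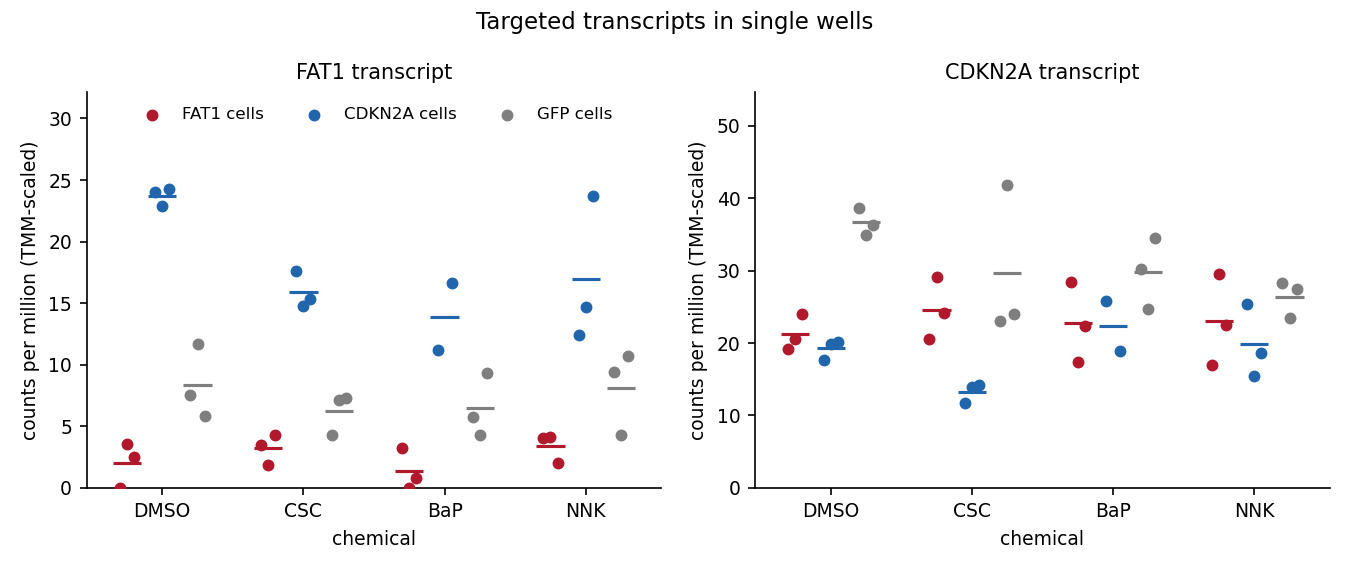
FAT1 transcript (left) and CDKN2A transcript (right) in single wells of FAT1 cells (red), CDKN2A cells (blue) and GFP cells (gray) under the 4 chemicals, in TMM-scaled CPM. Each point is 1 well and each line is the mean of its group; under DMSO the FAT1 transcript was at 0 to 3.52 CPM in FAT1 wells and at 22.9 to 24.3 CPM in CDKN2A wells, while the CDKN2A transcript overlapped between the 2 knockout populations.

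Over the transcriptome 11750 genes had a mean count above 1 in the 6 wells and were tested. Of these, 2515 (21.4%) passed at an adjusted p of 0.05, 1282 (10.9%) higher in FAT1 cells and 1233 (10.5%) lower. Differences of more than 4-fold were less even, with 85 genes higher and 191 lower in FAT1 cells. The 2 populations did not overlap in any well for 4095 (34.9%) of all genes tested. Of the genes that passed, this held for 1205 of the higher ones (10.3% of all genes) and 1173 of the lower ones (9.98%). The near-even split rests on the scaling. With TMM factors 51.0% of the genes that passed were higher in FAT1 cells and the median log2 fold change of all genes was -0.03, whereas with library totals alone 30.9% were higher and the median was -0.23. The count was 2639 without CDKN2A replicate 2, and it was lowest, at 1893, without FAT1 replicate 1. GFP cells were not used in the test. Their mean lay between the 2 populations for 904 of the 1282 higher genes and for 841 of the 1233 lower genes. Genes that passed had a gap between the 2 populations, which by itself favours a GFP mean inside it. No share over all tested genes is given to set against these counts. With 0.5 CPM added, the GFP mean was nearer to FAT1 cells for 857 higher and 749 lower genes. It was nearer to CDKN2A cells for 425 and 484.

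Among the genes higher in FAT1 cells, IFIT2, an interferon-induced protein that binds viral RNA, stood high in FAT1 cells and low in both of the other populations. It measured 123, 110 and 106 CPM in FAT1 cells, 12.5, 17.5 and 16.6 CPM in CDKN2A cells and 9.25, 14.2 and 10.2 CPM in GFP cells (log2 fold change 2.86, SE 0.20, adjusted p = 1.4e-21). CDKN2A and GFP wells interleaved, and all FAT1 wells lay above both. GABARAP, which builds autophagosome membranes, measured 470, 445 and 462 CPM against 145, 116 and 138 CPM, a log2 fold change of 1.79 (SE 0.12), with GFP wells in between at 293 to 317 CPM. CTSV, a lysosomal cysteine protease of epithelia, measured 469, 487 and 527 CPM in FAT1 cells and 170, 142 and 166 CPM in CDKN2A cells. GFP cells, at 502 to 584 CPM, overlapped with the FAT1 wells, so here the CDKN2A cells were the population that stood apart.

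The largest fitted change of all genes tested belonged to IRX2, a homeobox transcription factor. It measured 37, 28.1 and 29.0 CPM in FAT1 cells and 0, 0.602 and 0 CPM in CDKN2A cells. Summed over wells this was 141 counts against 1, a ratio of 166 whose 95% interval for counting error ran from 29.3 to 6600, and the fitted log2 fold change was 6.26 (SE 0.78). GFP cells held 16 to 24.0 CPM, so the transcript was missing almost wholly from the CDKN2A wells and from no other of these groups. MFAP5, a protein of elastic microfibrils, measured 33.9, 38.7 and 36.5 CPM in FAT1 cells against 3.13, 6.62 and 2.97 CPM, and GFP cells held more than either, at 89.1 to 97.3 CPM. ACAA2, which performs the last step of mitochondrial fatty acid oxidation, measured 52.4, 56.3 and 48.9 CPM against 6.79, 6.02 and 5.94 CPM (log2 fold change 3.02, SE 0.28), with GFP wells at 20 to 22.7 CPM. METTL7A, a methyltransferase of lipid droplets, and RNA45S5, the precursor of ribosomal RNA, had log2 fold changes of 2.78 and 2.83.

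Among the genes lower in FAT1 cells, SAT1, the rate-limiting enzyme of polyamine breakdown, measured 278, 230 and 267 CPM in FAT1 cells and 1190, 1000 and 1250 CPM in CDKN2A cells (log2 fold change -2.15, SE 0.11, adjusted p = 1.4e-29). GFP wells, at 426 to 505 CPM, were closer to the FAT1 wells. FGFBP1, a secreted carrier that releases fibroblast growth factors from the matrix, measured 93.9, 116 and 101 CPM against 521, 450 and 548 CPM, and with GFP cells at 380 to 445 CPM it was the FAT1 cells that stood apart (log2 fold change -2.28, SE 0.13). FABP5, a fatty acid carrier of epithelia, and TIMM8A, a chaperone of the mitochondrial intermembrane space, had log2 fold changes of -1.72 and -2.21.

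Among genes above 20 CPM in the higher population, BCHE, the plasma cholinesterase gene, gave the largest fitted difference in that direction. It measured 1.28, 0.586 and 0.829 CPM in FAT1 cells and 25.6, 15.6 and 19 CPM in CDKN2A cells (log2 fold change -4.08, SE 0.63) and was at 0 in each GFP well. BCHE was thus nearly confined to the CDKN2A cells among these 3 populations. KHDC1L, a member of the KHDC1 family with unclear function, measured 3.19, 3.52 and 2.49 CPM against 54.8, 39.7 and 44.5 CPM (log2 fold change -3.76, SE 0.39). PMP22, a tetraspan membrane protein of myelin and epithelia, measured 3.19, 4.11 and 2.49 CPM against 31.3, 37.3 and 38.0 CPM (log2 fold change -3.30, SE 0.38). For both genes the GFP wells, at 3.34 to 10.9 CPM and 5.84 to 6.54 CPM, lay near the FAT1 wells. ARMCX6 and FABP6, an armadillo-repeat protein and a bile acid carrier, had log2 fold changes of -3.04 and -2.81.

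**Figure D2:**
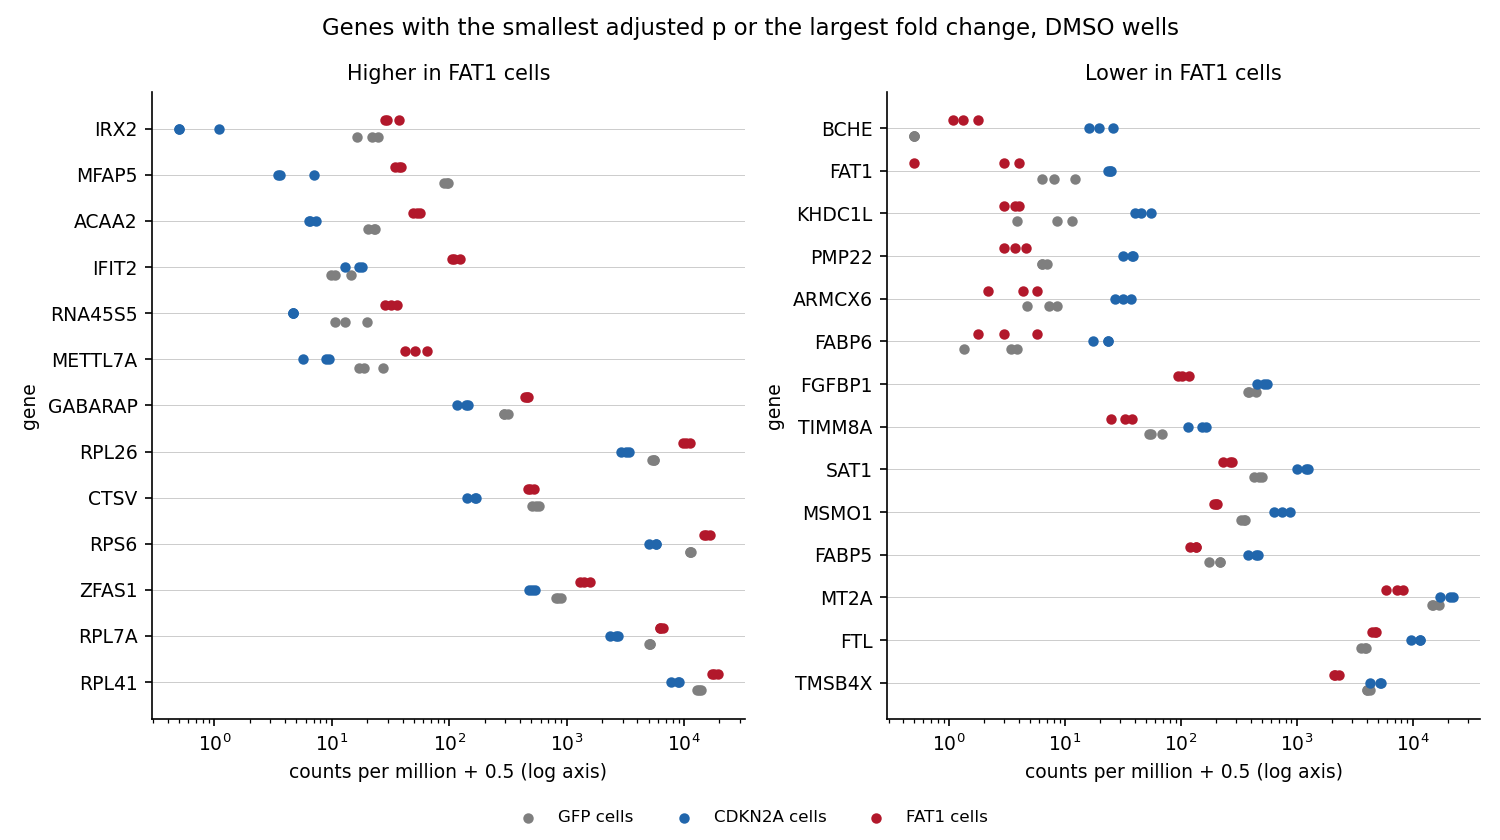
CPM plus 0.5 (log axis) of the genes with the smallest adjusted p or the largest fold change, higher (left) or lower (right) in FAT1 cells. Each point is 1 DMSO well of FAT1 (red), CDKN2A (blue) or GFP cells (gray). Only genes whose red and blue points do not overlap were eligible. Gray points, which took no part in the choice, sit with the blue ones for IFIT2, with the red ones for CTSV, and beyond the red ones for MFAP5.

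Genes were then grouped by role, and each group is described by how many of its tested members passed, beside the shares over all genes (10.9% higher, 10.5% lower). Among genes with a mean count above 10 and a known position the shares were larger, at 17.9% and 15.5%. Groups near these shares are given for their members and not as group results. They include the actin (21.9% and 15.6%), glycolysis (16.7% and 8.33%), p53 target (15.0% and 5.0%), simple epithelial (14.3% and 9.52%), mesenchymal (13.3% and 6.67%) and ATF4 groups (4.55% and 18.2%). The group around FAT1 itself, the FAT cadherins and the Hippo core, had 25 tested members. Of these 6 were lower in FAT1 cells (24.0%) and none was higher, with a median log2 fold change of -0.48. The targeted transcript FAT1 is among the 6, so the count is not independent of the targeting. Besides FAT1, the group included both coactivators of the pathway. WWTR1, which encodes TAZ, measured 9.58, 18.8 and 17.4 CPM in FAT1 cells and 38.1, 48.8 and 41.0 CPM in CDKN2A cells (log2 fold change -1.52, SE 0.23, adjusted p = 1.25e-07), with no overlap. GFP wells, at 12.3 to 16 CPM, lay with the FAT1 wells. YAP1 measured 8.94, 6.45 and 8.29 CPM against 13.6, 21.7 and 14.8 CPM (log2 fold change -1.03, SE 0.30, adjusted p = 0.00708). The scaffold AMOTL1, which holds YAP at junctions, gave -1.08. The kinase LATS1, which phosphorylates YAP, gave -0.13 (adjusted p = 0.828), and the other FAT cadherin FAT2 gave -0.81 (adjusted p = 0.118). Without FAT1 replicate 2 the number lower was 2, with YAP1 at an adjusted p of 0.0606 and AMOTL1 at 0.0778. Without CDKN2A replicate 2 there was 1 member higher. With DESeq2 the number lower was 2, and with each fold change set against its chromosome arm it was 3. WWTR1 lies on 3q and YAP1 and AMOTL1 on 11q, arms with median log2 fold changes of -0.66 and -0.43. In exposed cells 1 member of the group was higher and 5 were lower, with a median of 0.06.

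Of 17 tested target genes of YAP and TAZ, 4 were lower in FAT1 cells (23.5%) and 1 was higher (5.88%), with a median of -0.55. NT5E, the ectonucleotidase that makes adenosine, measured 5.11, 9.97 and 5.81 CPM in FAT1 cells against 27.1, 44.5 and 33.2 CPM (log2 fold change -2.26, SE 0.30, adjusted p = 2.95e-09). Its GFP wells lay in between at 15.1 to 19.2 CPM. CYR61, a secreted matrix protein used as a readout of YAP, measured 2.56, 3.52 and 5.81 CPM against 10.4, 14.4 and 8.31 CPM (log2 fold change -1.48, SE 0.40). The related CTGF gave -1.99 at 0 to 1.92 CPM in FAT1 cells and 3.13 to 5.42 CPM in CDKN2A cells. GFP wells held 1.67 to 4.2 CPM of CYR61 and 0.834 to 1.45 CPM of CTGF. For both genes they overlapped the FAT1 wells, so the CDKN2A wells were the ones that stood high. MYOF, a membrane repair protein, was higher at 46.6, 41.6 and 55.6 CPM against 22.4, 25.3 and 20.8 CPM (log2 fold change 1.04). Its GFP wells, at 34.1 to 49.6 CPM, overlapped the FAT1 wells. The number lower was 2 without FAT1 replicate 1 or replicate 2, and CTGF did not pass without CDKN2A replicate 2 or 3 or without any 1 of the FAT1 wells (adjusted p of 0.0508 to 0.141). The group was at 2 higher and 3 lower in exposed cells with a median of -0.02, and there CYR61 gave 0.20.

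In the pathway of CDKN2A, 30 genes for cyclin D kinases, their inhibitors, RB proteins, E2F factors and factors downstream of ARF were tested. Of these 8 were higher and 4 lower in FAT1 cells (median 0.24). The D-type cyclins moved in opposite directions. CCND1 measured 8.94, 15.8 and 8.29 CPM in FAT1 cells and 46.5, 45.7 and 47.5 CPM in CDKN2A cells (log2 fold change -2.07, SE 0.25, adjusted p = 1.05e-10), and GFP cells, at 8.41 to 15.0 CPM, overlapped with the FAT1 wells. CCND2 measured 15.3, 14.7 and 19.1 CPM in FAT1 cells and 0.522, 0 and 0.594 CPM in CDKN2A cells, and GFP cells held 0 to 0.834 CPM. Summed over wells this was 72 counts against 2, a ratio of 42.4 with a 95% counting interval of 11.3 to 357 (fitted log2 fold change 4.77, SE 0.77, adjusted p = 5.59e-07). CCND1 thus stood high in CDKN2A cells alone, and CCND2 was nearly confined to FAT1 cells among these populations. The exposed wells held the same order, with CCND1 at 8.96 to 27.8 CPM in FAT1 cells and 39.8 to 48.2 CPM in CDKN2A cells and CCND2 at 11.2 to 22 CPM and 0 to 1.85 CPM.

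CDKN1C, an inhibitor of cyclin-dependent kinases, measured 25.6, 17.0 and 20.7 CPM in FAT1 cells against 3.13, 4.21 and 2.37 CPM (log2 fold change 2.61, SE 0.38), with GFP cells at 5.01 to 15.2 CPM. TFDP2, a partner of E2F factors, was lower in FAT1 cells (log2 fold change -1.43). CDKN2B, the INK4 inhibitor next to CDKN2A, gave 0.70 (adjusted p = 0.136), CDK4 0.36 (adjusted p = 0.291), CDK6 0.53 (adjusted p = 0.2), RB1 0.43 (adjusted p = 0.316) and the p53 target CDKN1A -0.19 (adjusted p = 0.623). The number higher was 4 without CDKN2A replicate 1 and 5 without FAT1 replicate 2. It was 4 with library totals alone and 2 with fold changes set against their chromosome arms. In exposed cells 11 members were higher and 5 lower, with a median of -0.06.

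Among 40 genes of the cell cycle and replication, 15 were higher and 5 lower in FAT1 cells, with a median of 0.19 that turned to -0.01 with library totals alone. The proliferation marker MKI67 measured 95.8, 127 and 109 CPM in FAT1 cells and 57.4, 96.9 and 55.8 CPM in CDKN2A cells (log2 fold change 0.70), and here CDKN2A replicate 2 alone overlapped the FAT1 wells. RRM1 and RRM2, the large and small subunits of the reductase that makes deoxynucleotides, differed in sign at 0.81 and -1.01. HMGB2 and the histone H2AFZ, both on 4q, were lower at -0.76 and -0.56. Leaving out CDKN2A replicate 2 raised the number lower to 8, and setting fold changes against their arms left 6 higher and 2 lower. Of 20 tested p53 targets 3 were higher, namely FAS at 1.27, XPC at 1.29 and MDM2 at 0.81, with a median of 0.44. ZMAT3 was the 1 lower target (-1.12), and none was lower without FAT1 replicate 2 or replicate 3. In exposed cells 5 targets were higher and none was lower, with a median of 0.01.

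Of 30 tested interferon-stimulated and MHC class I genes, 10 were higher in FAT1 cells and 3 lower, with a median of 0.28. Type I interferon acts through a factor complex that binds the interferon-stimulated response element of its target genes, and the products include proteins that bind viral RNA and block its translation. IFIT1, which binds the caps of viral RNA, measured 51.1, 58.1 and 48.1 CPM in FAT1 cells and 11, 8.43 and 7.12 CPM in CDKN2A cells (log2 fold change 2.54, SE 0.25, adjusted p = 3.79e-14). IFIT3, its binding partner, measured 69.0, 52.8 and 67.2 CPM against 8.87, 12.6 and 13.7 CPM (log2 fold change 2.42, SE 0.23). IFI27, a small membrane protein, measured 42.2, 59.2 and 49.8 CPM against 12.5, 15.0 and 15.4 CPM (log2 fold change 1.80, SE 0.22). In all 3 genes the CDKN2A wells lay within or above the range of GFP cells, which spanned 4.36 to 10.9 CPM, 7.56 to 15.0 CPM and 1.67 to 10.1 CPM.

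The group did not move as a whole. IFI44 and IFI44L were higher at 1.41 and 2.66, ISG15 at 0.90 and OAS1 at 1.93, but IFI6 gave 0.35 (adjusted p = 0.564) and IFITM3 -0.04 (adjusted p = 0.9). The antigen presentation genes differed among themselves. B2M, the light chain of MHC class I, was higher at 0.40 and the immunoproteasome subunit PSMB9 at 1.24, while the peptide transporter TAP1 was lower at -1.61 and the antiviral membrane protein IFITM2 at -1.25. Without FAT1 replicate 1 the number lower was 1, and 11 members were higher when fold changes were set against their arms.

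The response element was looked for in the 250 bases before the start sites of a RefSeq promoter table (GRCh38.p14), as the letters GAAA, any 2 bases and GAAA again (TTTC, 2 bases and TTTC on the opposite strand). It was present for 1014 of 27305 genes in the table (3.71%). Of the tested group members, 23 matched a promoter in the table and 15 of these held the letters (65.2%), among them 7 of the 9 that were higher in FAT1 cells (77.8%) and 7 of the 13 that did not pass (53.8%). TAP1, the 1 lower member with a promoter in the table, held the letters too. Members that passed in either direction and members that did not pass thus all included holders. IFIT2 is named only. The promoters of IFIT1 (chr10:89392373-89392622, plus strand), IFIT3 (chr10:89332279-89332528, plus strand), IFI27 (chr14:94110486-94110735, plus strand), IFI44L (chr1:78620198-78620447, plus strand) and ISG15 (chr1:1013247-1013496, plus strand) are shown as members that were higher in FAT1 cells, and that of IFI6 (chr1:27672193-27672442, minus strand) as a member that held the motif 3 times and did not pass. Each is written in the direction of transcription and ends at the base before the start site, with matches in capitals. IFIT3 and IFI27 have a further start in the table that is not shown.
IFIT1: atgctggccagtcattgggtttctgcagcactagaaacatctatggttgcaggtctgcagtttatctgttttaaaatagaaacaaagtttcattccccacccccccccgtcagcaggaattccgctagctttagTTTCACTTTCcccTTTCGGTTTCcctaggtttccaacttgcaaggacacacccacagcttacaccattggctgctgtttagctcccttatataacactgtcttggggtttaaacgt
IFIT3: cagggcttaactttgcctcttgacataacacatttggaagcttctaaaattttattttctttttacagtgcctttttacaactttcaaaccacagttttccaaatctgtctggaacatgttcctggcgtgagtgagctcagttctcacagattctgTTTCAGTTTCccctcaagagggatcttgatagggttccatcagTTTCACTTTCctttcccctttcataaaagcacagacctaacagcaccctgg
IFI27: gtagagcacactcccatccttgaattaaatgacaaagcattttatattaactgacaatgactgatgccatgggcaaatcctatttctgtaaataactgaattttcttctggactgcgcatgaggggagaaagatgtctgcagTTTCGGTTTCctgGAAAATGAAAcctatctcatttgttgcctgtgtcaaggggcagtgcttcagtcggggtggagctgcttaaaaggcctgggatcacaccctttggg
IFI44L: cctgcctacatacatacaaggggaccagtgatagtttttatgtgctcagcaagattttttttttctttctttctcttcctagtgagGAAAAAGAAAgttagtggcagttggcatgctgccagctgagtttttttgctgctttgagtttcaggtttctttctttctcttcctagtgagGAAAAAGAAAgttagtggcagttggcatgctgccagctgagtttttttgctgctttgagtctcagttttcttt
ISG15: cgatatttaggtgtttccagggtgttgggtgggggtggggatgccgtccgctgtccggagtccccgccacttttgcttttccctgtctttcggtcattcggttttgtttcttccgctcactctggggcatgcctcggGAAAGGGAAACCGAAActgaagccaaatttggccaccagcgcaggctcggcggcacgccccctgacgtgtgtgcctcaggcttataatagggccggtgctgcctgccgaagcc
IFI6: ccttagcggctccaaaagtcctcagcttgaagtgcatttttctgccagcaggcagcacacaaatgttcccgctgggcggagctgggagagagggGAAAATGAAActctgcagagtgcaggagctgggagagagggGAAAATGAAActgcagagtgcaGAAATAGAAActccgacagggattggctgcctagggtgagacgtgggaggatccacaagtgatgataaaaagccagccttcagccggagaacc
As written, the matches in IFIT1 end 107 and 94 bases before the start site and in IFIT3 85 and 42 bases before it, all on the opposite strand. IFI44L holds the same 10 letters ending at 155 and 64 bases, and in ISG15 the matches that end at 104 and 98 bases overlap. A match is a description of these letters and was not tested for binding.

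The MAPK feedback and immediate early genes stood on the other side. Of 24 tested, 9 were lower in FAT1 cells and none was higher, with a median of -0.88. DUSP6, the phosphatase that switches off ERK, measured 2.56, 1.17 and 1.66 CPM in FAT1 cells and 17.2, 13.8 and 17.2 CPM in CDKN2A cells (log2 fold change -3.0, SE 0.50, adjusted p = 1.17e-06). EREG and AREG, ligands of the EGF receptor, were lower at -3.06 and -1.08. EREG measured 3.19, 1.17 and 0.829 CPM against 14.6, 17.5 and 14.8 CPM, and GFP wells held 2.52 to 5.81 CPM. The ERK-induced transcription factor ETV5 gave -2.57 and MYC -1.81, while EGR1 gave -0.17 (adjusted p = 0.806) and JUN -0.68 (adjusted p = 0.409). GFP cells were near FAT1 cells for DUSP6 too, at 0 to 4.20 CPM, so for EREG and DUSP6 the CDKN2A wells were the ones that stood high. For ETV5 the GFP wells, at 2.18 to 8.34 CPM, lay above the FAT1 wells (1.17 to 1.92 CPM) and overlapped the CDKN2A wells (6.53 to 14.4 CPM). DESeq2 called 5 of the group lower.

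Among 17 tested chemokines, cytokines and NF-kB genes 6 were lower in FAT1 cells and none was higher (median -0.75). CCL20, which attracts dendritic cells and lymphocytes to epithelia, measured 0.639, 0.586 and 0 CPM in FAT1 cells and 11.5, 10.2 and 20.2 CPM in CDKN2A cells. This was 2 counts against 73, a ratio of 31 with a 95% counting interval of 8.28 to 261 (fitted log2 fold change -4.24, SE 0.77). GFP wells, at 0 to 1.45 CPM, overlapped the FAT1 wells, so the CDKN2A wells stood high. IL1A, an alarm cytokine of epithelia, measured 10.2, 2.93 and 4.15 CPM against 17.7, 13.2 and 23.7 CPM (log2 fold change -1.75), and IL18, processed by the inflammasome, gave -0.76. IL1B gave 0.17 (adjusted p = 0.799). Without FAT1 replicate 2 the number lower was 3, and the NF-kB target BIRC3 (-0.85) then had an adjusted p of 0.0598. Set against their arms 3 members were lower.

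Of 24 tested NRF2 targets and ferritin genes, which serve the oxidant response and iron storage, 12 were lower and 3 higher, with a median of -0.86. The ferritin light chain FTL measured 4700, 4440 and 4850 CPM in FAT1 cells and 11500, 9680 and 11500 CPM in CDKN2A cells (log2 fold change -1.23, SE 0.08, adjusted p = 1.08e-24), and the heavy chain FTH1 gave -1.19. SLC7A11, which imports cystine for glutathione synthesis, measured 30.7, 21.1 and 19.1 CPM against 90.3, 98.7 and 65.3 CPM (log2 fold change -1.83, SE 0.19). The glutathione peroxidase GPX2 gave -2.56, NQO1, the quinone reductase, -0.86, and AKR1C3 -1.30. For FTL, FTH1 and SLC7A11 the GFP wells lay at 3560 to 3930, 397 to 419 and 32.7 to 40.0 CPM, below every CDKN2A well, whereas NQO1 in GFP cells, at 167 to 199 CPM, was above both knockout populations. The thioredoxin TXN was higher in FAT1 cells at 0.40, TXNRD1 gave -0.20 (adjusted p = 0.332) and GCLM -0.39 (adjusted p = 0.375). Against their arms 11 members were lower and none was higher.

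Metallothioneins bind zinc and copper and buffer oxidants. Of 10 tested, 4 were lower in FAT1 cells and none was higher (median -0.25). MT2A measured 5850, 8170 and 7300 CPM in FAT1 cells against 22200, 17300 and 21100 CPM in CDKN2A cells, with GFP cells between them at 14800 to 16900 CPM (log2 fold change -1.52, SE 0.08, adjusted p = 1.23e-29). MT1E gave -0.64, MT1L -1.11 and MT1X -0.37, and MT1X did not pass without CDKN2A replicate 1 (adjusted p = 0.062). MT1G gave 0.95 (adjusted p = 0.0557) and 1 member was higher without FAT1 replicate 1. Members of this family are near copies of each other, so reads may be split among them. The promoter of MT2A (chr16:56608334-56608583, plus strand, GRCh38.p14) is shown because the gene had the smallest adjusted p of all genes lower in FAT1 cells. Metal response elements were searched as the letters TGCNCNC on either strand, which 53% of the genes in the table hold in at least 1 promoter. MT2A held them 7 times, a number that 30 of 27305 genes reach (0.11%). MT1X, which passed, and MT1H, which did not, held the letters too. The matches are in capitals.
MT2A: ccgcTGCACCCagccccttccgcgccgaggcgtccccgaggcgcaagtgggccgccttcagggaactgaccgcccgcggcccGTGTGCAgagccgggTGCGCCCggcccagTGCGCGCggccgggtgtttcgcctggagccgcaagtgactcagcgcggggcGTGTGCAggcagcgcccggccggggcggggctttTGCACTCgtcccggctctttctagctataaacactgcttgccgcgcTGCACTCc

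Of 14 tested S100 calcium-binding proteins 7 were lower in FAT1 cells and none was higher (median -0.66). S100A8, a subunit of calprotectin, measured 23, 29.3 and 19.9 CPM against 112, 92.7 and 115 CPM (log2 fold change -2.12, SE 0.19). S100A2, a p63-regulated protein of basal cells, was lower at -0.91 from 2920 to 3420 CPM against 5820 to 6410 CPM, while S100A6 and S100A10 gave 0.05 and 0.07. The whole family named here lies on 1q, an arm whose median fold change was -0.00. Annexins, which bind membranes in the presence of calcium, differed in both directions, with 4 of 8 tested higher and 2 lower (median 0.37). ANXA1 was higher at 0.89 and ANXA11 at 1.72, and without CDKN2A replicate 1 or replicate 3 the number lower was 1. The lowest value of the family, -3.24, was larger in size than the highest, that of ANXA11. In exposed wells ANXA5 and ANXA10 were lower and ANXA1, ANXA7 and ANXA11 higher in FAT1 cells, each without overlap.

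Of 21 tested basal epithelial genes 3 were higher (14.3%) and 5 lower (23.8%) in FAT1 cells (median -0.27). KRT14, a keratin of basal cells, measured 5.75, 9.97 and 4.98 CPM in FAT1 cells and 31.3, 34.3 and 35.6 CPM in CDKN2A cells (log2 fold change -2.25, SE 0.30), and GFP cells held more than both, at 53.8 to 75.9 CPM. Its partner KRT5 gave 0.24 (adjusted p = 0.181) and TP63 -0.31 (adjusted p = 0.341). The desmosomal DSP was higher at 0.72 and measured 231, 194 and 188 CPM against 108, 188 and 93.2 CPM, with CDKN2A replicate 2 next to the FAT1 wells and the other CDKN2A wells well below, and with DESeq2 it did not pass (adjusted p = 0.108). The hemidesmosomal collagen COL17A1 was higher at 0.88, and the integrin chain ITGA6 was lower at -0.76. Of 21 simple epithelial and junction genes 3 were higher and 2 lower (1 lower without FAT1 replicate 2, when CLDN1 was at an adjusted p of 0.08). The tight junction protein CLDN7 was higher at 1.61, EPCAM was lower at -0.62, and CDH1, the epithelial cadherin, gave -0.03 (adjusted p = 0.954).

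Mesenchymal and matrix genes had 2 of 15 higher and 1 lower. THBS1, a matrix glycoprotein that activates TGF-beta, measured 5.75, 11.1 and 9.12 CPM in FAT1 cells against 50.1, 44.5 and 32.6 CPM (log2 fold change -2.28, SE 0.28), with GFP wells at 5.88 to 14.2 CPM. The caveolins CAV1 and CAV2, which are neighbours on 7q, were higher at 0.51 and 1.15. With fold changes set against the arm CAV1 turned to -0.20 (adjusted p = 0.219). VIM and FN1, markers of mesenchymal cells, gave 0.45 (adjusted p = 0.365) and 0.02 (adjusted p = 0.97). The number lower was 2 without CDKN2A replicate 2, CDKN2A replicate 3 or FAT1 replicate 1. Of 32 actin cytoskeleton genes 7 were higher and 5 lower. The cytoplasmic actins ACTG1 and ACTB were lower at -1.28 and -0.67 and the actin-sequestering thymosin TMSB4X at -1.17, while the myosin light chain MYL6 was higher at 0.78. Medians of the mesenchymal and actin groups, 0.02 and 0.14, turned to -0.18 and -0.06 with library totals alone. Of 25 proteases and inhibitors 5 were higher and 7 lower. The antiprotease SLPI was higher at 1.07 and its relative PI3 lower at -1.33. The number higher was 3 when any of CDKN2A replicate 1, CDKN2A replicate 2, FAT1 replicate 2 or FAT1 replicate 3 was left out.

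Cytosolic ribosomal proteins had the largest share of members in 1 direction among the gene lists (76.2%). Of 84 tested 64 were higher in FAT1 cells and 3 lower, with a median of 0.55, and for 72 the wells of the 2 populations did not overlap. RPL26 measured 9810, 10400 and 11200 CPM in FAT1 cells and 3380, 2910 and 3220 CPM in CDKN2A cells, with GFP wells between at 5360 to 5590 CPM (log2 fold change 1.72, SE 0.08, adjusted p = 1.41e-33). RPS6, the ribosomal substrate of S6 kinase, gave 1.5 from 14900 to 16600 CPM against 5020 to 5810 CPM, and RPL7A gave 1.29 and RPL41 1.07. The 3 lower members were RPL39L, a variant best known from testis, at -1.04, FAU at -0.43 and RPL35A at -0.30. With library totals alone the split was 61 higher and 11 lower and the median 0.34, without CDKN2A replicate 2 the number lower was 8, and against the chromosome arms 69 were higher and none was lower. These genes have many processed copies in the genome, so single levels are uncertain. The snoRNA host RNAs ZFAS1 (1.49), GAS5 (1.22), SNHG6 (0.92) and SNHG5 (0.57) were higher as well. Of the 15 host and nuclear noncoding RNAs tested 6 were higher and 4 lower, with MALAT1 at -0.35, and 2 were lower without FAT1 replicate 3.

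Nuclear subunits of oxidative phosphorylation had 29 of 79 members higher and 11 lower. NDUFA9 of complex I measured 335, 350 and 341 CPM against 160, 129 and 178 CPM (log2 fold change 1.14, SE 0.12), and ATP5I of the ATP synthase, on 4p, was lower at -0.83. The median of 0.18 turned to -0.02 with library totals alone, when 19 members were lower. The number lower was 7 without CDKN2A replicate 1 or without FAT1 replicate 1, and against the chromosome arms 30 were higher and 2 lower. In glycolysis, GAPDH and TPI1, both on 12p, were higher at 1.07 and 1.23 and PGK1, on Xq, was lower at -0.63. Among all 24 glycolysis and hypoxia genes 4 were higher and 2 lower, with 5 lower without CDKN2A replicate 2 and 1 without FAT1 replicate 1.

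Of 30 tested genes of sterol and fatty acid synthesis 16 were lower in FAT1 cells, 1 was higher and 13 did not pass (median -0.55). MSMO1, a demethylase of the late sterol pathway, measured 206, 191 and 202 CPM in FAT1 cells and 748, 641 and 880 CPM in CDKN2A cells, with GFP cells at 331 to 356 CPM (log2 fold change -1.91, SE 0.12, adjusted p = 1.08e-24). SC5D, a desaturase of the same stretch, measured 53, 54.5 and 64.7 CPM against 198, 178 and 231 CPM (log2 fold change -1.82, SE 0.15), and its GFP wells, at 47.1 to 55.9 CPM, lay with the FAT1 wells. IDI1 and HMGCS1, of the early isoprenoid steps, gave -1.14 and -1.08, and DHCR7, which makes cholesterol in the last step, -1.47. The fatty acid synthase FASN gave -0.38 (adjusted p = 0.428). CYP51A1, the member that was higher (0.38), did not pass without CDKN2A replicate 1 or 3 or without any 1 of the FAT1 wells. The sterol regulatory element, searched as TCACNCCAC on either strand, was in the promoters of 297 genes of the table (1.09%) and in none of the 13 lower members found in it. Of the 9 members found there that did not pass, 1 held it (SREBF2). Letters this rare are seldom met in so few genes, so their absence decides nothing about these members.

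Heat shock proteins and chaperones had 10 of 22 members lower and 2 higher (median -0.38). The mitochondrial chaperonins HSPE1 and HSPD1, which share a promoter, gave -1.29 and -0.79, and HSPE1 measured 498, 650 and 658 CPM against 1610, 1210 and 1560 CPM. The cytosolic HSP90AA1 gave -0.94. HSPB1, a small heat shock protein on 7q, was higher at 1.52, and the number higher was 1 without FAT1 replicate 2. Of 22 ATF4 and endoplasmic reticulum stress genes 4 were lower and 1 higher, led by the chaperone HSPA5 at -0.65 and by HERPUD1 at -1.11. The number higher was 0 without CDKN2A replicate 3 or FAT1 replicate 1 and 2 without FAT1 replicate 2.

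**Figure D3:**
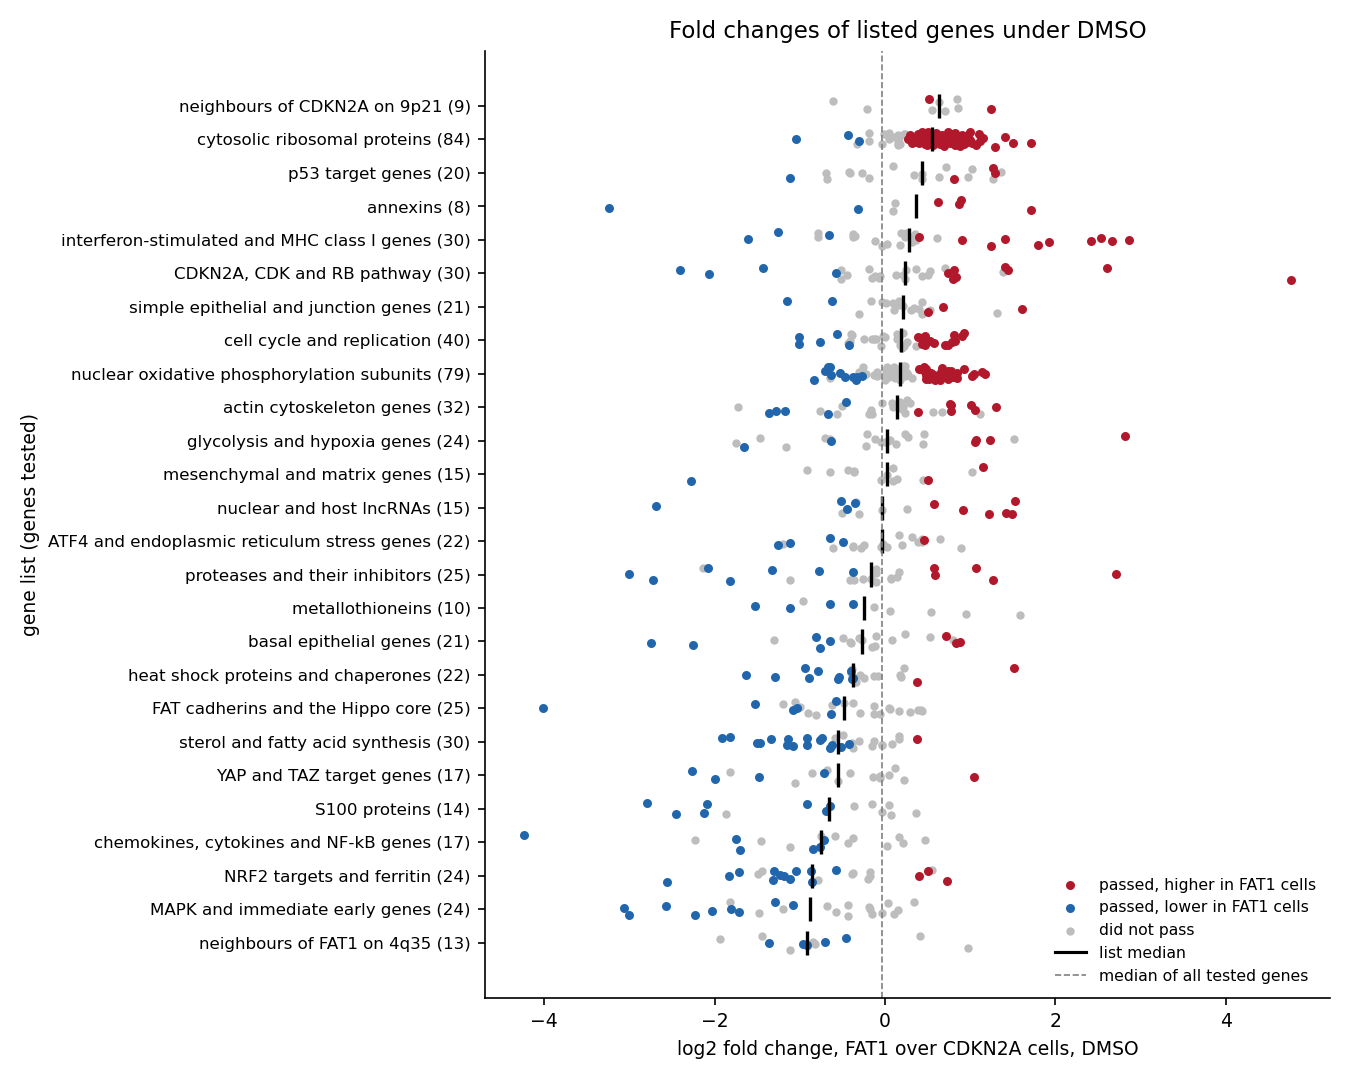
Log2 fold change of FAT1 over CDKN2A cells under DMSO for every tested gene of 26 lists, ordered by list median (number tested in parentheses). Red and blue points passed the test higher or lower in FAT1 cells and gray points did not, black bars are list medians and the dashed line is the median of all genes (-0.03); the 4q35, MAPK and NRF2 lists have medians of -0.92, -0.88 and -0.86, and the ribosomal protein list 0.55.

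The genes beside the targeted loci were examined next. Of 9 tested neighbours of CDKN2A on 9p21, 2 were higher in FAT1 cells, FOCAD at 1.24 (24.3, 36.9 and 26.5 CPM against 8.87, 16.9 and 12.5 CPM) and MTAP, a methionine salvage enzyme, at 0.52, and none was lower (median 0.64). MTAP did not pass, which left 1 gene, without FAT1 replicate 1 (adjusted p = 0.104) or with library totals alone (0.0975). Of 13 tested neighbours of FAT1 on 4q35, 5 were lower and none was higher (median -0.92), among them FRG1 at -0.96 and the mitochondrial carrier SLC25A4 at -0.92, and 3 were lower without FAT1 replicate 2 or replicate 3. Against the arm medians no 9p21 gene was higher, with FOCAD at 0.47 (adjusted p = 0.208), MTAP at -0.25 (adjusted p = 0.284) and a median of -0.13. No 4q35 gene was lower and 1, the actin-binding SORBS2, was higher (adjusted p = 0.0295), with a median of -0.36, FRG1 at -0.40 (adjusted p = 0.114) and SLC25A4 at -0.36 (adjusted p = 0.216).

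Whole arms of the chromosomes differed between the populations. Arms were examined after the gene values were seen, so they are described without a test, over the 6278 genes with a mean count above 10 and a known position, of which 17.9% were higher and 15.5% lower in FAT1 cells. On 9p the median log2 fold change was 0.77 and 39 of 69 genes were higher and none was lower. The medians of 12p (0.74) and 7q (0.71) were close to it, with 104 of the 174 genes on 7q higher and 7 lower. On 3q the median was -0.66 and 140 of 251 genes were lower against 5 higher, and on 4q it was -0.56 with 88 of 178 lower against 2 higher. Xp and 4p had medians of -0.64 and -0.58. On chromosome 1 both arms were at about 0 (-0.01 and -0.00). For 36 of the 41 arms the median of each well over the GFP mean did not overlap between FAT1 and CDKN2A wells.

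Relative to GFP cells some arms differed mainly in 1 population and others in both. On 9p the FAT1 wells had medians of 0.02 to 0.12 and the CDKN2A wells -0.76 to -0.52, and on 7q 0.08 to 0.15 and -0.63 to -0.51. On 4q the CDKN2A wells stood at 0.71 to 0.83 and the FAT1 wells at 0.18 to 0.19, and on Xp the FAT1 wells stood at -0.79 to -0.66 and the CDKN2A wells at 0.07 to 0.16. On 3q the FAT1 wells stood at -0.22 to -0.20 and the CDKN2A wells at 0.39 to 0.48, and on 12p at 0.37 to 0.38 and -0.50 to -0.35, on either side of GFP cells. On 10p both populations were below GFP cells, at -0.54 to -0.50 and -0.49 to -0.35. Arms of 1 chromosome could differ in sign, as 3p (0.40) and 3q (-0.66) or 11p (0.38) and 11q (-0.43) did. The running median over 31 genes also varied within arms. On chromosome 17 it ran from 0.85 at C1QBP to -0.49 at DRG2, both on 17p, and on chromosome 11 from -0.69 at SPCS2 to 0.79 at THYN1, both on 11q. Subtracting arm medians left 1686 genes that passed, 839 higher and 847 lower. DNA was not measured here, and the cause of these arm values was not tested.

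**Figure D4:**
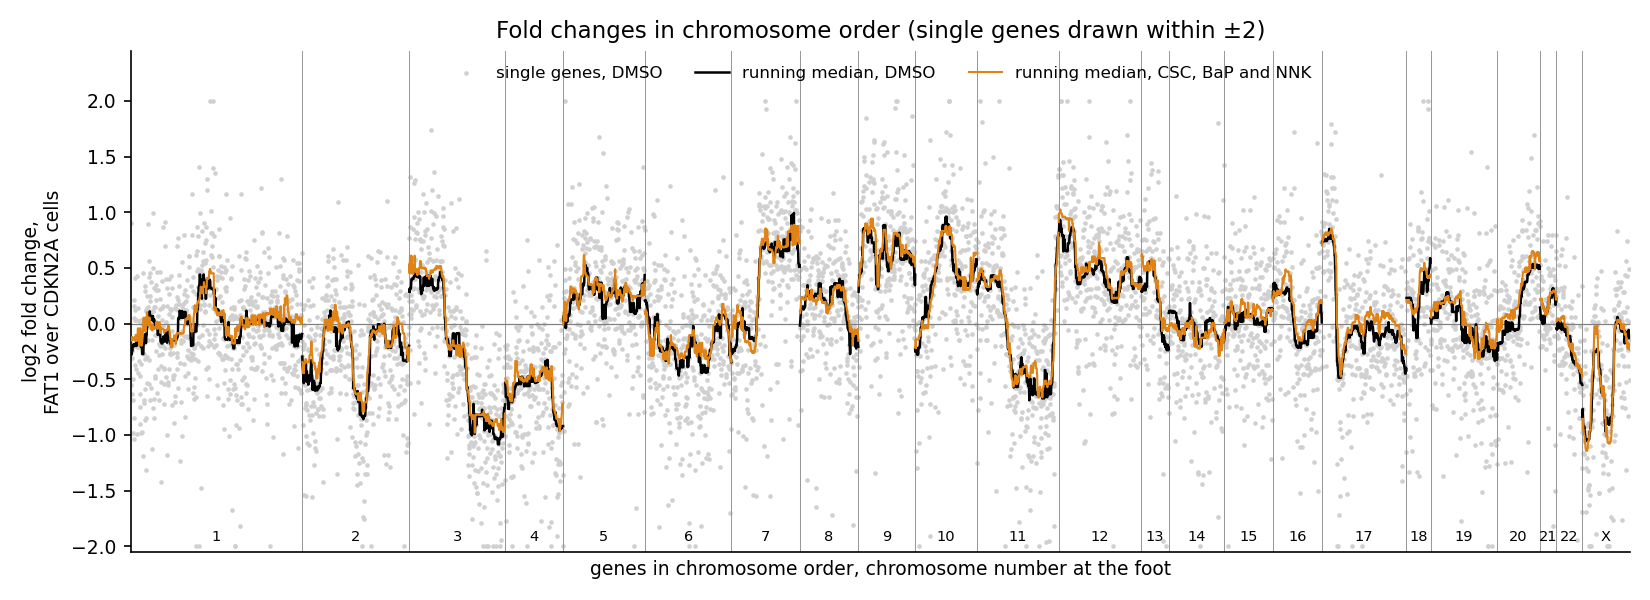
Log2 fold change of FAT1 over CDKN2A cells for genes with a mean count above 10 in chromosome order (numbers at the foot), with single genes as gray points drawn within ±2 and running medians over 31 genes for DMSO wells (black) and for exposed wells (orange). The black line reaches -1.08 on chromosome 3 and 0.99 on chromosome 7, runs between -0.28 and 0.44 on chromosome 1, and is followed closely by the orange line.

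The same contrast was then measured in wells that the DMSO comparison did not use. Under CSC, BaP and NNK there were 9 FAT1 samples and 8 CDKN2A wells, and CDKN2A wells with 2-digit replicate numbers were summed by their first digit, which left 5 CDKN2A samples. In this fit, with chemical as a covariate, 4170 of 11698 genes passed (35.6%), 2189 (18.7%) higher and 1981 (16.9%) lower in FAT1 cells. Of the 2515 genes that passed under DMSO 2495 were tested again, 2466 of them had the same sign and 2158 had the same sign and passed. The other 29 had the opposite sign and none of them passed. The median absolute log2 fold change of these genes was 0.91 under DMSO and 0.73 in exposed wells. The wells were new, but the populations and their plate columns were the same.

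The FAT1 transcript lay at 0 to 4.29 CPM (median 3.26, n = 9) in exposed FAT1 wells and at 11.2 to 23.7 CPM (median 15.0, n = 8) in exposed CDKN2A wells. IFIT2 lay at 46.4 to 170 CPM (median 129) against 10.2 to 26.0 CPM (median 17.0), and RPL26 at 9200 to 12000 CPM against 3030 to 4090 CPM. BCHE lay at 0 to 1.86 CPM against 18.9 to 35.1 CPM, SAT1 at 281 to 354 CPM against 1290 to 1500 CPM, and MT2A at 6930 to 10200 CPM against 19300 to 22000 CPM. The populations did not overlap for any of these 6 genes. YAP1, at 4.63 to 10.3 CPM against 8.78 to 19.4 CPM, and CYR61, at 2.49 to 12.6 CPM against 2.77 to 13 CPM, did overlap. The CDKN2A transcript overlapped as well, at 17.0 to 29.6 CPM against 11.7 to 25.8 CPM (log2 fold change 0.34, limma adjusted p = 0.094). Under CSC alone it did not overlap, at 20.6 to 29.1 CPM in FAT1 wells and 11.7 to 14.2 CPM in CDKN2A wells. Those CDKN2A wells entered the fit as 1 summed sample. Under BaP and under NNK the wells overlapped. Among groups, 68 ribosomal proteins were higher and 6 lower in exposed cells (median 0.48), 17 sterol genes were lower and 2 higher (median -0.44), 11 S100 proteins were lower and none was higher (median -1.03), and 11 interferon-stimulated and MHC genes were higher and 6 lower (median 0.18). The medians of the Hippo, CDK and RB, and p53 target groups, at 0.06, -0.06 and 0.01, were nearer to 0 in exposed cells than under DMSO. Arm medians kept their sign in exposed wells for 37 of 41 arms, with 9p at 0.83 and 3q at -0.60.

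Whether the contrast itself changed with exposure was tested as an interaction in 1 fit over all these samples. No gene of 11770 passed with limma (0.0%), 887 (7.54%) had an unadjusted p under 0.05 and the smallest adjusted p was 0.0614. The edgeR quasi-likelihood test called 4 genes and DESeq2 called 0. With 1 sample left out limma called 4 genes without CDKN2A DMSO replicate 1, 3 without FAT1 CSC replicate 3 and 2 without FAT1 NNK replicate 3. It called 1 without CDKN2A CSC replicate 3, FAT1 CSC replicate 1 or FAT1 DMSO replicate 3. A gene that passed in only 1 of the fits, such as CYR61, is therefore not shown to differ between them.

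**Figure D5:**
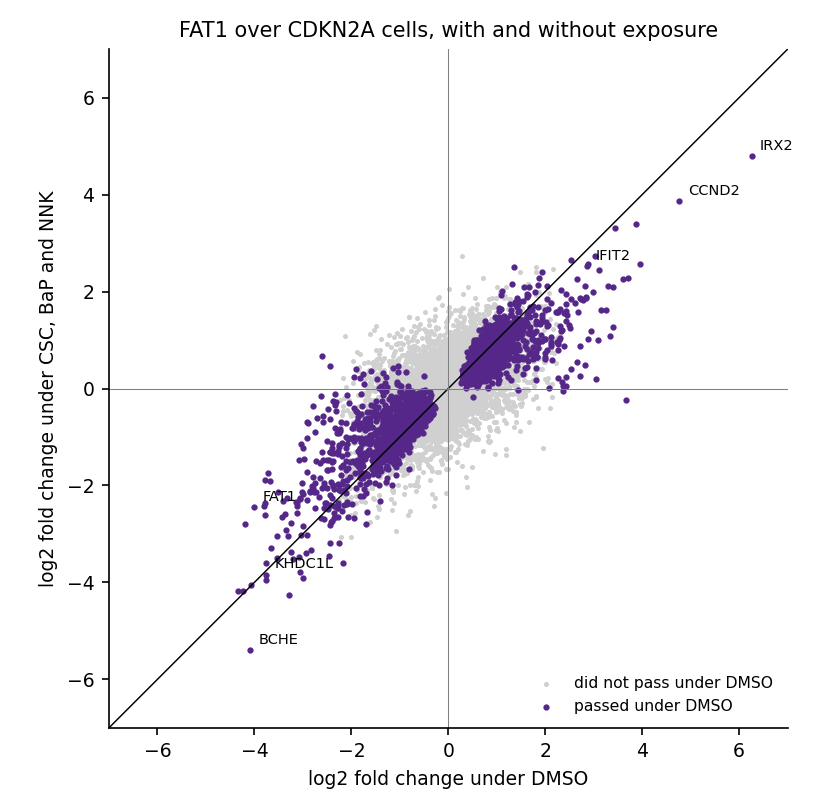
Log2 fold change of FAT1 over CDKN2A cells under DMSO (x axis, 6 wells) against that under CSC, BaP and NNK (y axis, 9 FAT1 and 5 CDKN2A samples), 1 point per gene, with the line of equal values. Purple points passed under DMSO, and 2466 of the 2495 that were tested in both fits have the same sign on both axes; IRX2 and CCND2 are farthest to the upper right and BCHE farthest down.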

How the data were processed

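Libraries were sequenced after 3′DGE, in which each molecule carries a well barcode and a unique molecular identifier (UMI). The authors received matrices in which reads had been aligned with BWA aln 0.7.10 (seed length 24) to UCSC RefSeq transcripts of hg19, with each combination of barcode and UMI counted once per gene. The deposited values are these whole-number counts, not normalized, 1 file per well. Genes with a mean count above 1 in the 6 wells were kept, scaled by TMM factors (edgeR 4.0.16) and fitted with limma-voom (limma 3.58.1, R 4.3.3), with a two-sided moderated test and Benjamini-Hochberg adjustment at 0.05. Log2 fold changes are FAT1 over CDKN2A cells, and CPM are counts scaled by TMM to a library of 1e6. GFP wells entered no test. In exposed wells the same fit had chemical as a covariate, and CDKN2A wells numbered 31 to 33 under CSC, and 21 and 22 under NNK, were summed because the labels do not say what the second digit means. BaP replicates 1 and 3 completed the 5 CDKN2A samples. DESeq2 1.42.0 and edgeR's quasi-likelihood test served as alternatives. The closing section gives the others, among them left-out wells, other scalings and filters. Each test was tried on simulated data.

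Genes named in the text were the 2 targeted genes, the 8 with the smallest adjusted p and the 6 with the largest fold change (at least 20 CPM in the higher population) in each direction among genes whose wells did not overlap, and up to 4 genes that passed in each gene list. Members of the lists that did not pass, or that stood beyond the first 4, were named after their values were seen. The comparison and the gene lists were chosen with earlier results of these data known. Positions came from GENCODE lifted to hg19, which gave 93.4% of the listed symbols a place. Promoters came from RefSeq (GRCh38.p14). With 3 wells per group and totals of 1296129 to 1792617 counts, intervals on ratios of summed counts cover counting error only. Values of some list members are not reported here.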

Additional observations from a re-analysis of the deposited data

How the results depend on the processing

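The number of genes that passed under DMSO (2515) was 1527 with the DESeq2 test and 2693 with edgeR, and lay between 1893 and 2639 when 1 well was left out. The split moved with the method, from 51.0% higher in FAT1 cells to 30.9% with library totals alone (2604 genes passed) and 48.4% with edgeR. Replicate numbers did not pair the wells (correlations of -0.0852, -0.0529 and 0.00262), and with replicate number as a block 2463 genes passed. In exposed wells 4170 genes passed, 2439 with the 2-digit wells left out, 1897 in BaP wells alone, 2176 in NNK wells alone, and 3259 to 4132 with 1 sample left out. The interaction had 0 calls, 4 with edgeR, 0 with DESeq2, 1 with the 2-digit wells left out, 2 with the replicate block and 0 to 4 with 1 sample left out. The FAT1 transcript ranged from -4.83 to -2.85 and the CDKN2A transcript from 0.04 to 0.17 with 1 well left out, and with library totals alone the latter was -0.06. Subtraction of arm medians, chosen after seeing the data, turned the CDKN2A transcript to -0.64, MTAP to -0.25 and CAV1 to -0.20, and 27 of 116 genes named by the rule no longer passed. Of those 116, 104 kept direction and call under every alternative but the arm subtraction. DESeq2 lost 8, FAT1 replicate 2 left out lost 7, and the block lost none. YAP1 had an adjusted p of 0.0518 with DESeq2, AMOTL1 0.0699, CTGF 0.117, ZMAT3 0.191 and DSP 0.108. With library totals alone 11 S100, 8 actin cytoskeleton, 9 cell cycle, 6 glycolysis, 3 mesenchymal and 2 p53 target genes were lower. The causes of these moves were not tested. At this depth genes of few CPM rest on few counts per well, and 3 wells per group from a single population each limit every p-value.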
